A study of Glycine max with 12 samples.

Results

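The lncRNAs of young pods of the soybean JN18 were compared between 40 and 30 d after flowering (JN_40 versus JN_30). JN18 is the high-oil variety labelled as wild type, the control of the low-linolenic acid mutant MT72. No other treatment separated the stages. The comparison rests on 6 of the 12 libraries of the series, JN_4, JN_5 and JN_6 at 40 d and JN_7, JN_8 and JN_9 at 30 d. The remaining 6 libraries come from pods of MT72 at 40 d (MT_40) and 30 d (MT_30). The study describes its 3 replicates per group as biological, but does not say how many plants or pods each library holds. The p-values therefore measure the spread between libraries, which was estimated over all 12 libraries of both genotypes. In all, 11072 assembled lncRNAs are listed, each with its FPKM, a level scaled by transcript length and library size. Of these, 8052 were above 0.1 FPKM in at least 3 of the 6 JN18 libraries and were compared. Among the 3020 that did not pass, 727 were at 0 in every JN18 library. Seed and pod wall were sequenced together, so a change in the share of a tissue and a change within its cells cannot be told apart. The table holds no protein-coding genes, and the tissue was therefore not checked against marker genes.

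Long noncoding RNAs (lncRNAs) are longer than the small regulatory RNAs and encode no recognisable protein. They are sorted by their place against annotated genes. Intergenic lncRNAs lie between genes, intronic ones lie inside an intron, sense ones share splice junctions or exons with a gene on its own strand, and antisense ones run across a gene on the opposite strand. Antisense transcripts can bind or interfere with the RNA of the gene they cross, and many lncRNAs are made in a single tissue or for a short time. Between the stages compared here the pod passes from growth of its wall to the filling of the seed, when storage protein, starch and oil are laid down.

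The 6 JN18 libraries held 10.0 to 12.3 Gb of aligned bases, and a transcript of median length at 1 FPKM had 22.6 to 27.7 reads. JN_9 stood apart from the others. Its log2 levels correlated at 0.45 to 0.50 with the other 30 d libraries, against 0.65 for JN_7 with JN_8 and 0.68 to 0.72 among the 40 d libraries. With the JN18 libraries of 40 d JN_9 correlated at 0.51 to 0.54, above its values with its own stage. It correlated at 0.51 to 0.53 with the MT_40 libraries and at 0.44 to 0.47 with the MT_30 libraries. In JN_9, 258 lncRNAs were at 0 while every other JN18 library was above 0.1 FPKM, against 30 to 76 in each other library, and 126 were more than 4 times as high as in any other library and above 1 FPKM, against 1 to 30. JN_8 correlated at 0.61, 0.67 and 0.70 with JN_4, JN_5 and JN_6 of the later stage, around its 0.65 with JN_7. The number of lncRNAs detected above 0 FPKM was 8760 ± 74.9 (SD, n = 3) at 40 d and 8693 ± 411 at 30 d, a difference of 67 with a two-sided exact permutation p of 1. Without JN_9 the difference was -167 with an exact permutation p of 0.20. With 3 libraries against 3, the smallest p this test allows is 0.10.

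JN_40 differed from JN_30 in few lncRNAs at an adjusted p. With limma on log2 of FPKM plus 0.1, 23 of the 8052 lncRNAs (0.286%) passed an adjusted p of 0.05, 19 of them higher (0.236%) and 4 lower (0.0497%) at 40 d. With only the JN18 libraries in the fit, 3 lncRNAs passed, and 1 of them was among the 23. The study's methods state laxer thresholds, a log2 fold change beyond 1 in either direction with p at or below 0.05 before adjustment. Past these unadjusted thresholds, 885 lncRNAs (11.0%) were found in limma, 467 higher (5.80%) and 418 lower (5.19%). The study, which used edgeR, reported far fewer for JN_40 versus JN_30. The libraries of the stages did not overlap for 476 lncRNAs (5.91%) that were higher at 40 d and for 625 (7.76%) that were lower, 13.7% in all. Without JN_9 these shares were 11.2% and 16.6%, 27.8% in all, where fewer libraries make overlap rarer. So few libraries can also separate without a stage effect, and the share expected from this was not computed. Filtering left 65 lncRNAs that were above 0.1 FPKM in every 40 d library and in no 30 d library, and 64 of the reverse kind. These passed the filter through the higher stage alone, and 13 of the 23 calls belong to them.

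The number of calls depended on which library was left out. Without JN_9, 35 lncRNAs (0.435%) passed the adjusted p, 22 higher (0.273%) and 13 lower (0.161%) at 40 d. Of these, 17 were among the 23. The other 6 of the 23 had an adjusted p of up to 0.0648 in limma without JN_9. The unadjusted thresholds took 1142 lncRNAs (14.2%) without JN_9, 537 higher (6.67%) and 605 lower (7.51%), of which 607 also passed with it. Without JN_8, 123 lncRNAs passed the adjusted p, 107 higher and 16 lower, and these included all 23. Without JN_5 there were 14 calls and without JN_6 there were 4. No lncRNA passed without JN_4 or without JN_7 in limma, where 733 and 1007 lncRNAs were at or below 0.05 before adjustment.

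**Figure D1:**
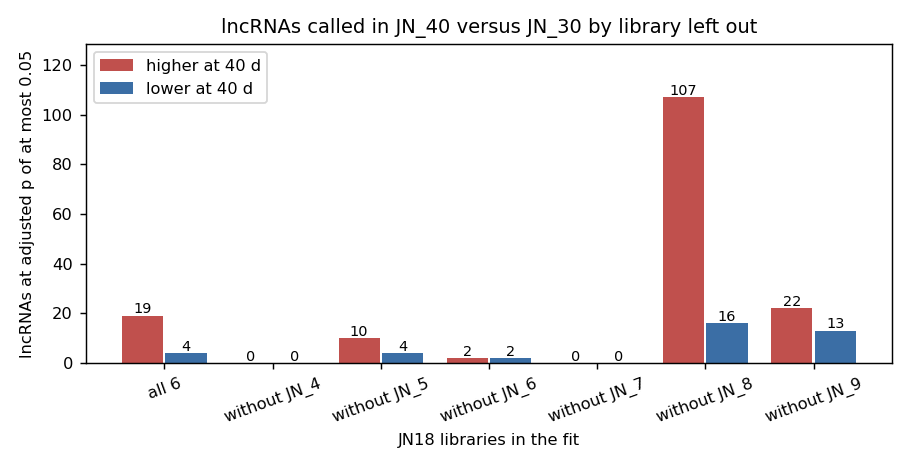
Number of lncRNAs at an adjusted p of at most 0.05 in JN_40 versus JN_30 with all 6 JN18 libraries and with each left out in turn. Bars give the lncRNAs higher (red) and lower (blue) at 40 d. The count was 23 with all libraries, 0 without JN_4 or JN_7, and 123 without JN_8.

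Among the 23 called lncRNAs, 14 were intergenic, 4 intronic, 3 antisense and 2 sense, and 16 had a single exon. Their mean level in the higher stage was 0.486 to 12.2 FPKM, at least 1 FPKM in 16 of them. The 23 are described here by class, starting with the antisense transcripts, for which the opposite gene is known.

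The antisense transcript with the clearest change was MSTRG.6672.4, which crosses PRP3 on chromosome 11 (12644195 to 12644559, minus strand). PRP3 encodes a proline-rich protein of the cell wall. MSTRG.6672.4 was at 3.21, 4.68 and 2.01 FPKM in JN_4, JN_5 and JN_6 and at 0.0638, 0.00436 and 0 FPKM in JN_7, JN_8 and JN_9. All 40 d libraries lay far above all 30 d libraries, where the level was that of at most 1.43 reads. The log2 difference was 4.75 ± 0.65 (SE) with an adjusted p of 0.0149, and 4.62 with an adjusted p of 0.0257 without JN_9. In MT72 it was at 5.72 to 52.0 FPKM at 40 d and at 2.44 to 3.52 FPKM at 30 d. The near absence of this isoform at 30 d was thus seen in JN18 but not in MT72. The limma test for a stage effect that differs between JN18 and MT72 did not pass for it (adjusted p = 0.685). A second isoform, MSTRG.6672.2, was at 8.98, 17.1 and 4.0 FPKM at 40 d and at 4.80, 0.299 and 0 FPKM at 30 d, so that its stages overlapped at JN_6 and JN_7. The 6 isoforms of this locus summed were at 16.1, 29.3 and 18.1 FPKM at 40 d and at 4.98, 4.85 and 0 FPKM at 30 d. The locus was therefore not near 0 in JN_7 and JN_8. The log2 difference of the sum was 3.92 ± 1.08 (SE), and its adjusted p of 0.154 in limma did not pass.

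MSTRG.21850.1 runs opposite HOP1 on chromosome 17 (11112875 to 11113292, plus strand). HOP proteins are co-chaperones that link the heat shock proteins HSP70 and HSP90. The transcript was at 0.566, 1.22 and 0.521 FPKM at 40 d and was listed at 0 in every 30 d library (adjusted p = 0.0149 in limma, 0.0255 without JN_9). It was also listed at 0 in all 6 MT72 libraries. Its 40 d levels rest on 7.87 to 20.5 reads per library. The third antisense call was MSTRG.36990.1 opposite LOC100802759 on chromosome 4, at 1.30, 1.42 and 0.400 FPKM at 40 d and 0, 0.0259 and 0.0155 FPKM at 30 d (adjusted p = 0.0476). It no longer passed without JN_9 (adjusted p = 0.0645), nor when the isoforms of its locus were summed (adjusted p = 0.0587).

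The most abundant of the called lncRNAs were intergenic, without a strand in the table and with a single exon. MSTRG.46743.1 on chromosome 7 (42132901 to 42133569) was at 20.2, 6.27 and 10.2 FPKM in the 40 d libraries and at 1.05, 2.22 and 2.47 FPKM in the 30 d libraries. Its mean was 12.2 ± 7.21 (SD, n = 3) against 1.91 ± 0.759 FPKM, or 6.40-fold higher at 40 d (adjusted p = 0.0283). MSTRG.9012.1 on chromosome 12 (24118824 to 24119216) was at 11.8, 10.2 and 12.6 FPKM at 40 d and at 1.55, 4.64 and 1.79 FPKM at 30 d. Its 40 d libraries were close to each other and its mean was 4.34-fold higher (adjusted p = 0.0410), but it did not pass without JN_9 (adjusted p = 0.0619). MSTRG.48489.1 on chromosome 8 (11785444 to 11786539) was at 6.22, 8.35 and 5.32 FPKM against 2.19, 2.08 and 1.31 FPKM, a 3.56-fold higher mean with an adjusted p of 0.0295.

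Several intergenic lncRNAs were near 1 FPKM at 40 d and close to 0 at 30 d. MSTRG.277.1 on chromosome 1 was at 1.56, 1.01 and 1.57 FPKM against 0, 0.0807 and 0 FPKM. MSTRG.20738.1 on chromosome 17 was at 1.32, 0.906 and 1.04 FPKM against 0, 0 and 0.0217 FPKM. Both had an adjusted p of 0.0179. MSTRG.23817.1 on chromosome 18, spliced from 2 exons, was at 1.29, 0.777 and 1.20 FPKM against 0, 0.179 and 0 FPKM (adjusted p = 0.0252). In each of MSTRG.277.1 and MSTRG.23817.1 the 30 d signal came from JN_8 alone. MSTRG.16315.1 on chromosome 15 was at 1.14, 0.981 and 0.849 FPKM against 0.0594, 0.128 and 0.0525 FPKM (adjusted p = 0.0233), and MSTRG.1574.1 on chromosome 1 was at 0.549, 0.546 and 1.16 FPKM against 0, 0.0751 and 0 FPKM (adjusted p = 0.0356, and 0.0616 without JN_9). MSTRG.22540.1 on chromosome 17 was at 1.51, 2.18 and 1.27 FPKM against 0.368, 0.247 and 0 FPKM (adjusted p = 0.0476). Over the 19 lncRNAs higher at 40 d, JN_8 was the highest of the 30 d libraries in 8, and 13 were listed at 0 in at least 1 of the 30 d libraries.

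The called intronic and sense lncRNAs lie in genes named only by a locus number, so nothing can be said here of the host's function. Higher at 40 d were MSTRG.21361.1 in LOC100780925, with 1.70, 0.668 and 1.77 FPKM against 0.0510, 0.0347 and 0.00713 FPKM (adjusted p = 0.0233), MSTRG.34518.1 in LOC100810201 with 0.992, 1.07 and 1.37 FPKM against 0, 0.248 and 0 FPKM (adjusted p = 0.0442, and 0.0648 without JN_9) and MSTRG.40410.1 in LOC100790076 with 0.646, 0.781 and 1.22 FPKM against 0.0387, 0.0757 and 0.0381 FPKM (adjusted p = 0.0453, and 0.0619 without JN_9). MSTRG.7706.2, which shares a splice junction with LOC100818061, was at 0.412, 0.983 and 0.877 FPKM against 0, 0 and 0.0140 FPKM (adjusted p = 0.0189). Of the intronic lncRNAs tested, 84.1% have no strand in the table, and for these the reads of an intronic lncRNA cannot be told apart from reads of unspliced host RNA.

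Only 4 lncRNAs were lower at 40 d at the adjusted p. MSTRG.25385.1 is intergenic on chromosome 18 (53577308 to 53577809). It was at 1.44, 1.02 and 0.697 FPKM in JN_7, JN_8 and JN_9 and at 0.0204, 0.0213 and 0.0232 FPKM in JN_4, JN_5 and JN_6, where the level was that of less than 1 read. The log2 difference was -3.19 ± 0.41 (SE) with an adjusted p of 0.0149, and -3.43 with an adjusted p of 0.0106 without JN_9. In MT72 it was at 0.0309 FPKM or less at both stages, so the 30 d level was seen in JN18 but not in MT72. For it too, the limma test for a stage effect that differs between JN18 and MT72 did not pass (adjusted p = 0.129). MSTRG.17634.1, intergenic on chromosome 15 (32480264 to 32482054), was at 3.41, 4.31 and 12.6 FPKM at 30 d and at 0.486, 1.22 and 0.474 FPKM at 40 d. JN_9 was its highest library, and its log2 difference was -2.93 with it and -2.37 without it (adjusted p = 0.0233 and 0.0314). MSTRG.12268.3 is a spliced sense transcript of LOC106795514, a gene that RefSeq annotates as lncRNA. It was at 1.43, 1.03 and 1.04 FPKM at 30 d and at 0, 0.0849 and 0.138 FPKM at 40 d (adjusted p = 0.0236). MSTRG.9086.1, in an intron of LOC100808448, was at 1.66, 1.26 and 1.74 FPKM at 30 d and at 0.495, 0.221 and 0.417 FPKM at 40 d (adjusted p = 0.0476, and 0.0619 without JN_9).

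**Figure D2:**
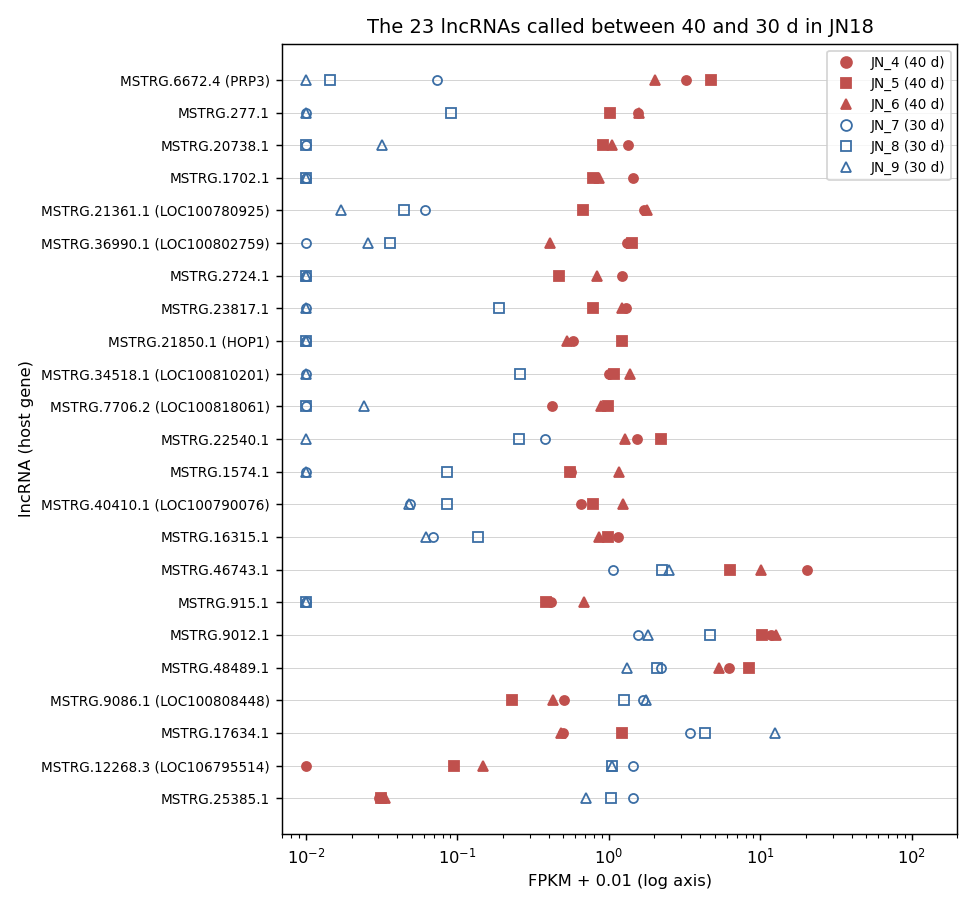
FPKM of the 23 called lncRNAs in each JN18 library, on a log axis after adding 0.01 so that values of 0 can be drawn. Filled red symbols are 40 d libraries and open blue symbols are 30 d libraries. In all 23 the libraries of the stages did not overlap, and 13 of the lncRNAs that were higher at 40 d were at 0 in at least 1 of the 30 d libraries.

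A lncRNA listed at 0 FPKM in every library of a stage has no fold change. Of the 8052 tested, 14 such lncRNAs were above 0.1 FPKM in every 40 d library, 9 of them intergenic, with means of 0.130 to 1.02 FPKM at 40 d. The reverse held for 11, also with 9 intergenic, with means of 0.209 to 1.04 FPKM at 30 d. The highest of the first kind were MSTRG.1702.1 with 1.44, 0.780 and 0.849 FPKM, MSTRG.2724.1 with 1.21, 0.457 and 0.827 FPKM, MSTRG.21850.1 opposite HOP1, MSTRG.26204.1 with 0.909, 0.826 and 0.570 FPKM and MSTRG.19014.1 with 0.235, 0.826 and 0.461 FPKM at 40 d. Of the 14, 4 passed the adjusted p, namely MSTRG.1702.1 (0.0283), MSTRG.2724.1 (0.0233), MSTRG.21850.1 and MSTRG.915.1 (0.0205). MSTRG.915.1 was at 0.406, 0.372 and 0.679 FPKM at 40 d and, like MSTRG.21850.1, was listed at 0 in all MT72 libraries. The highest of the reverse kind were MSTRG.49742.1 with 0.567, 0.751 and 1.80 FPKM, MSTRG.10230.1 with 0.261, 0.444 and 1.19 FPKM, MSTRG.29494.1 with 0.372, 0.354 and 1.01 FPKM, MSTRG.15057.1 with 0.320, 0.953 and 0.156 FPKM and MSTRG.46335.1 with 0.695, 0.466 and 0.170 FPKM at 30 d. In 3 of these 5 JN_9 was the highest library, and none of the 11 passed the adjusted p with all libraries. Leaving JN_9 out raised the numbers to 39 and 40, where fewer 30 d libraries had to meet the condition.

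Some of the largest changes among lncRNAs at 1 FPKM or more did not pass the adjusted p. Past the unadjusted thresholds, 237 of the 8052 lncRNAs tested reached a mean of 1 FPKM in their higher stage without overlap of the libraries. Of these, 140 were higher and 97 lower at 40 d. Without overlap alone, 5.91% of all lncRNAs tested were higher and 7.76% lower. How many of those tested reach 1 FPKM was not counted, so the share at this level is not known. MSTRG.35266.1, intergenic on chromosome 3 and spliced from 2 exons, was at 20.8, 11.1 and 20.2 FPKM at 40 d and at 0.0225, 7.54 and 0 FPKM at 30 d, with a log2 difference of 5.21 ± 1.18 (SE) and an adjusted p of 0.0841. MSTRG.32858.1 on chromosome 20 was at 15.1, 8.65 and 14.4 FPKM against 0, 5.43 and 0.413 FPKM (adjusted p = 0.0905). MSTRG.5874.1 on chromosome 11 was at 3.64, 2.45 and 5.35 FPKM against 0, 1.57 and 0 FPKM (adjusted p = 0.0737). In all 3, JN_8 was between the 40 d libraries and the other 30 d libraries. MSTRG.22236.1 on chromosome 17 was at 4.96, 0.849 and 3.75 FPKM against 0.302, 0.306 and 0 FPKM (adjusted p = 0.0725).

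Among those lower at 40 d, MSTRG.22466.1, intergenic on chromosome 17, had the widest range at 30 d. It was at 201, 15.8 and 4.10 FPKM in JN_7, JN_8 and JN_9 and at 1.15, 1.65 and 2.05 FPKM at 40 d, and its log2 difference of -3.83 ± 1.33 (SE) had an adjusted p of 0.253. MSTRG.36863.1 on chromosome 4 was at 2.56, 7.05 and 1.61 FPKM at 30 d and 0, 0 and 1.20 FPKM at 40 d (adjusted p = 0.253). MSTRG.46997.1, a sense transcript of LOC102666282, was at 1.12, 5.13 and 1.29 FPKM against 0.0681, 0.154 and 0.451 FPKM (adjusted p = 0.107), and MSTRG.37773.1, in an intron of LOC106798545, was at 0.628, 1.45 and 1.99 FPKM against 0.0487, 0.355 and 0 FPKM (adjusted p = 0.0841). MSTRG.53579.1, on an unplaced scaffold, was at 4.41, 11.2 and 5.83 FPKM against 1.07, 0 and 2.76 FPKM (adjusted p = 0.268). None of these passed the adjusted p.

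The classes of lncRNA differed in the balance of their changes. Of 172 antisense lncRNAs tested, 34 (19.8%) were higher and 8 (4.65%) lower at 40 d past the unadjusted thresholds, where 5.80% and 5.19% of all lncRNAs tested were. The 34 come from 29 loci, since isoforms of a locus share reads. The median log2 difference was 0.30 for antisense lncRNAs and -0.06 over all tested. Intronic lncRNAs leaned the other way, with 163 of 4288 higher (3.80%) and 219 lower (5.11%) and a median of -0.11. Of the intergenic lncRNAs, 222 of 2660 were higher (8.35%) and 175 lower (6.58%), with a median of -0.01. Without JN_9, 231 intergenic lncRNAs were higher and 234 lower, so that their lean towards higher was lost, and 203 intronic ones were higher and 322 lower. Sense lncRNAs sharing a junction had 40 of 801 higher and 14 lower, and those overlapping exons had 8 of 131 higher and 2 lower. Without JN_9, 38 antisense lncRNAs were higher and 14 lower, with a median of 0.29. Leaving out each JN18 library in turn gave 28 to 42 antisense lncRNAs that were higher and 4 to 14 that were lower.

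**Figure D3:**
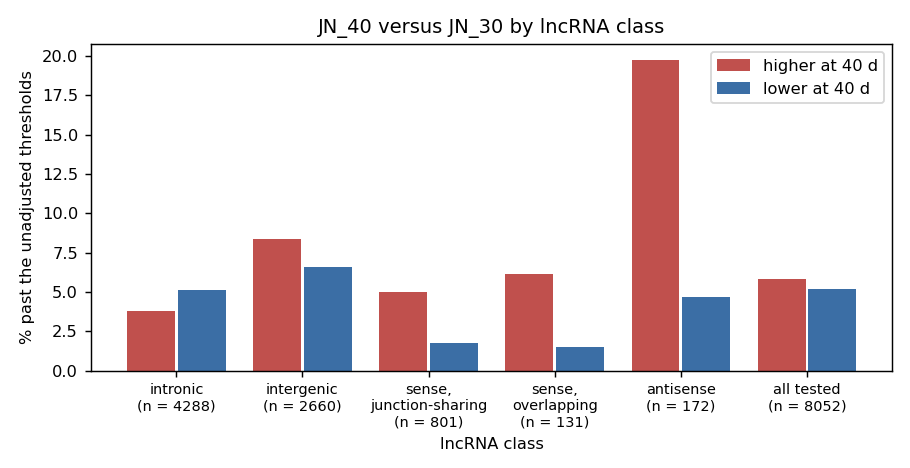
Percentage of the tested lncRNAs of each class past the unadjusted thresholds, higher (red) or lower (blue) at 40 d. The class size stands under each name. Antisense lncRNAs had 19.8% higher and 4.65% lower, and all lncRNAs tested had 5.80% higher and 5.19% lower.

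Transcripts that rose past the unadjusted thresholds were longer than those that fell. The median length was 426 bases for the 467 that were higher at 40 d, 324 bases for the 418 that were lower and 380 bases for all tested. Among the lncRNAs called at the adjusted p it was 625 bases for the 19 higher and 627 bases for the 4 lower. Intronic lncRNAs made up 163 of the 467 and 219 of the 418. Lengths were not compared within classes or without JN_9. More than 1 exon was found in 26.1% of the higher set, 12.2% of the lower set and 20.2% of all tested. Above 10 FPKM in the 40 d mean stood 15 lncRNAs of the higher set, and above 10 FPKM in the 30 d mean stood 4 of the lower set. Chromosome 2 had 38 higher and 17 lower of 434 tested and chromosome 1 had 29 and 11 of 337, while chromosome 20 had 14 and 26 of 411. Without JN_9 these were 39 and 27, 23 and 21, and 20 and 34.

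Host genes with several tested lncRNAs were examined next. Of 976 host genes with at least 2 tested lncRNAs, 32 had at least 2 past the unadjusted thresholds. These 32 held 130 tested lncRNAs, of which 75 passed, and they were picked because several did. The passing lncRNAs were all higher in 15 hosts and all lower in 16, and their directions were mixed in 1. Where the lncRNAs came from different assembled loci, 9 hosts had all of them higher and 16 all of them lower. The examples with at least 3 such lncRNAs were named after their values were seen. None of these lncRNAs passed the adjusted p.

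At CYP72A68 on chromosome 15 all 4 tested lncRNAs, from 3 loci, were higher at 40 d. CYP72A68 is a cytochrome P450, and in Medicago truncatula the enzyme of this name oxidises triterpenes on the way to saponins. The intronic MSTRG.18001.1 (46454530 to 46454797) was at 4.44, 7.41 and 5.37 FPKM at 40 d and at 1.41, 1.96 and 0.338 FPKM at 30 d, a log2 difference of 2.37 ± 0.49 (SE) with an adjusted p of 0.0725. Its stages did not overlap, and the difference was 1.70 without JN_9. The antisense MSTRG.18002.1 (46456516 to 46463751) was at 0.794, 2.56 and 0.183 FPKM against 0.164, 0.0389 and 0.0562 FPKM (adjusted p = 0.253). Its neighbour MSTRG.18003.2 was at 0.780, 2.61 and 0.151 FPKM against 0.0369, 0.0216 and 0 FPKM (adjusted p = 0.152), and the isoform MSTRG.18003.1 was at 0.988, 1.37 and 0.276 FPKM against 0.350, 0.0397 and 0.133 FPKM (adjusted p = 0.253). JN_5 was the highest library in all 4.

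At LOC100526921 on chromosome 2, 3 antisense isoforms were higher at 40 d. MSTRG.29612.2 was nearly constant at 40 d with 3.44, 3.48 and 3.54 FPKM, and at 30 d it was at 1.06, 1.02 and 0.311 FPKM (adjusted p = 0.158). MSTRG.29612.1, the most abundant of them, was at 9.32, 15.4 and 37.0 FPKM against 6.91, 11.9 and 1.12 FPKM, so its stages overlapped, and its log2 difference fell from 1.91 to 0.94 without JN_9. In LOC100790007 on chromosome 10, 4 of 7 intronic lncRNAs were higher, among them MSTRG.3318.1 with 0.944, 1.10 and 2.13 FPKM against 0.237, 0.407 and 0.243 FPKM (adjusted p = 0.120). In LOC102662777 on chromosome 14, 4 of 7 were lower, among them MSTRG.14541.1 with 0, 0.0481 and 0.222 FPKM at 40 d against 0.480, 0.815 and 0.493 FPKM at 30 d (adjusted p = 0.113). In LOC100814443 on chromosome 9, 4 of 5 were lower, all with log2 differences between -1.64 and -1.21. LOC100783198 and LOC100789713 each had 3 lower.

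The single host with mixed directions was LOC100779523 on chromosome 18, where antisense isoforms of one locus exchanged their signal. MSTRG.25566.2 (55425978 to 55440189, minus strand) was at 8.05, 11.5 and 9.04 FPKM at 40 d and at 0.727, 1.08 and 0.423 FPKM at 30 d, a log2 difference of 3.57 ± 0.83 (SE, adjusted p = 0.0905). MSTRG.25566.3 (55426001 to 55440189) is a nearly equal transcript with 1 shared end. It was at 0, 0.145 and 0.00665 FPKM at 40 d and at 6.48, 9.08 and 5.64 FPKM at 30 d, a log2 difference of -5.67 ± 1.66 (SE, adjusted p = 0.183). In limma with only the JN18 libraries, both passed, with adjusted p of 0.0234 for MSTRG.25566.2 and 0.00861 for MSTRG.25566.3. The summed level of both was 8.05 to 11.7 FPKM at 40 d and 6.07 to 10.2 FPKM at 30 d, so the stages overlapped once the isoforms were added. The third isoform, MSTRG.25566.1, was at 2.48 to 7.75 FPKM in all 6 libraries. Over the 3 isoforms the log2 difference was 0.47 ± 0.29 (SE) with an adjusted p of 0.549. In MT72 the same exchange occurred between libraries of one stage. MSTRG.25566.3 was at 0.0749, 0.0932 and 11.6 FPKM in the 40 d libraries and at 12.1, 11.9 and 0.0426 FPKM in the 30 d libraries of MT72.

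**Figure D4:**
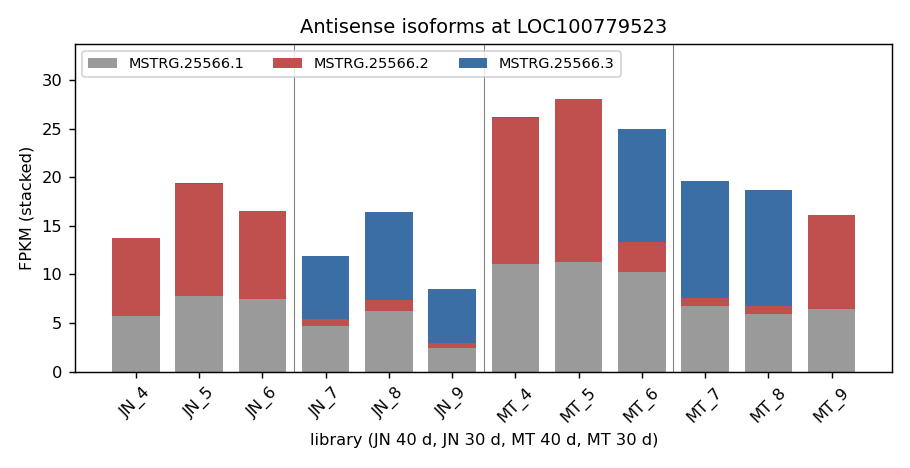
FPKM of the 3 antisense isoforms at LOC100779523, stacked per library, for JN18 and MT72 at 40 and 30 d. In JN18 MSTRG.25566.2 (red) fills the 40 d libraries and MSTRG.25566.3 (blue) the 30 d libraries, while in MT72 the libraries MT_6 and MT_9 differ from the other libraries of their stage.

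Some of the host genes with a name were sorted into 9 lists of function, of which 8 held a host, with 42 lncRNAs, 23 of them tested. Past the unadjusted thresholds 10 of the 23 were higher and 2 lower at 40 d, beside the 5.80% and 5.19% of all tested. Isoforms of 1 locus and several lncRNAs of 1 host are among the 23, which are therefore not independent. Over all 48 named hosts, including those outside the lists, 42 lncRNAs were tested. Of these, 13 were higher and 2 lower past the unadjusted thresholds.

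In lipid metabolism the list held lncRNAs at DGAT, FATB1B, PLDZ and WRI1, and 3 of 6 were tested. DGAT makes triacylglycerol in its last step, FATB thioesterases release saturated fatty acids, phospholipase D cleaves membrane lipids and WRI1 regulates oil synthesis. None passed the thresholds, and their median log2 difference was -0.61. The intronic MSTRG.51202.1 in DGAT was at 1.15, 0.701 and 0.627 FPKM at 40 d and at 1.06, 1.65 and 1.26 FPKM at 30 d, a log2 difference of -0.64 ± 0.37 (SE). MSTRG.21677.1 in FATB1B was at 1.05, 1.44 and 1.91 FPKM against 3.16, 1.25 and 0.664 FPKM. MSTRG.33761.1 in PLDZ was at 0.461, 0.192 and 0.206 FPKM against 0.292, 0.211 and 1.37 FPKM. For all 3 the stages overlapped.

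The lipoxygenase list held 1 tested lncRNA, the antisense MSTRG.44447.1 at VLXC on chromosome 7 (503811 to 510983, minus strand). VLXC is a vegetative lipoxygenase, one of the enzymes that oxidise linoleic and linolenic acid. The transcript was at 5.39, 12.8 and 5.26 FPKM at 40 d and at 0.607, 3.33 and 0.386 FPKM at 30 d. Its stages did not overlap, and its log2 difference was 2.78 ± 0.59 (SE) with an adjusted p of 0.0736, or 2.22 with an adjusted p of 0.0971 without JN_9.

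Among seed storage and maturation hosts, 3 of 10 lncRNAs were tested and 1 passed the unadjusted thresholds. MSTRG.16798.3 runs antisense to HPS, a hydrophobic protein made in the pod and laid on the seed surface, and spans 9433993 to 9443178 of chromosome 15. It was at 27.4, 2.04 and 67.4 FPKM at 40 d and at 0.00420, 8.35 and 0 FPKM at 30 d. JN_5 was below JN_8, so the stages overlapped, and the log2 difference of 5.15 ± 1.90 (SE) had an adjusted p of 0.268. Without JN_9 it did not pass the unadjusted thresholds. Both lncRNAs in introns of LEA-2, which encodes a late embryogenesis abundant protein, were at 1.40 to 4.61 FPKM with log2 differences of 0.51 and 0.23.

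In the light and clock list, 3 of 4 lncRNAs passed the unadjusted thresholds. AP1A is named after the floral regulator APETALA1 of Arabidopsis. Its sense MSTRG.43332.3 was at 3.38, 5.20 and 2.63 FPKM against 1.28, 2.23 and 1.83 FPKM, and its intronic MSTRG.43333.1 at 4.65, 6.85 and 3.23 FPKM against 0.901, 3.57 and 1.65 FPKM. The log2 differences were 1.01 ± 0.39 and 1.36 ± 0.43 (SE, adjusted p = 0.291 and 0.209). COL17 belongs to the CONSTANS-like genes, and the intronic MSTRG.26773.1 in it was at 0.0397, 0.0302 and 0.0250 FPKM at 40 d and at 0.403, 0.205 and 0.663 FPKM at 30 d (log2 difference -1.90 ± 0.45, adjusted p = 0.0952). MSTRG.46228.1 in STP1, the one carbohydrate lncRNA that passed, was at 0.354, 0.519 and 0.264 FPKM against 1.34, 0.672 and 0.826 FPKM (adjusted p = 0.390, and a log2 difference of -1.11 with JN_9 and -1.17 without it, where the unadjusted p of limma was 0.058). The list of cell wall genes held only PRP3 and the list of phenylpropanoid enzymes passed only through CYP72A68, both described above. The 4 lncRNAs of CYP72A68 are thus among the 10 that were higher, although the enzyme's known role is not in the metabolism the list is named for. None of the 4 lncRNAs tested in the transcription factor list passed with all libraries, and 1 did, lower at 40 d, without JN_9. That list leaves out the regulator genes AP1A and COL17, which were placed under light and clock. The list of hormone genes had no host.

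The lncRNAs that changed between the stages of MT72 were followed in JN18. In the same limma fit, 135 lncRNAs (1.68% of the 8052) rose and 29 (0.360%) fell from MT_30 to MT_40 at the adjusted p. The JN18 libraries took no part in that contrast, though they set the filter and part of the estimated spread. The median level of the 135 was 1.46, 1.01 and 1.26 FPKM in JN_4, JN_5 and JN_6 and 0.164, 0.519 and 0.260 FPKM in JN_7, JN_8 and JN_9. All 40 d libraries lay above all 30 d libraries, with JN_8 nearest to them. The median level of the 29 was 0.107, 0.219 and 0.226 FPKM at 40 d and 0.536, 0.326 and 0.376 FPKM at 30 d. In JN18, 125 of the 135 were higher and 25 of the 29 lower at 40 d, while over all lncRNAs tested the JN18 and MT72 differences had the same sign for 60.0%. The median log2 difference of the 135 was 1.85 in JN18, where 10 passed the adjusted p and 101 the unadjusted thresholds, and 2.92 in MT72, whose values chose them. For the 29 it was -0.71 in JN18 and -2.59 in MT72. Without JN_9 the numbers were 128 of 135 and 25 of 29, with medians of 1.73 and -0.98. Without JN_8 the median of the 135 was 2.23.

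**Figure D5:**
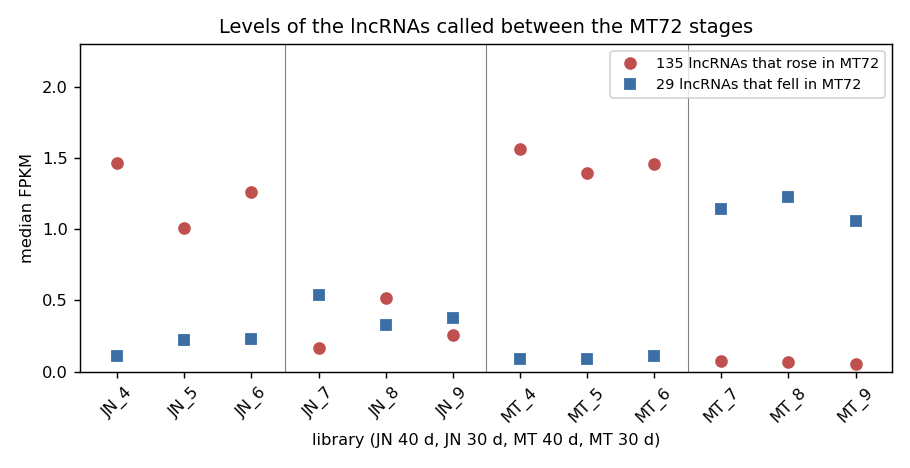
Median FPKM, in each library, of the 135 lncRNAs that rose (red circles) and the 29 that fell (blue squares) between the stages of MT72. The MT72 values chose these lncRNAs and stand for reference. In JN18 the risen set was at 1.01 to 1.46 FPKM at 40 d and at 0.164 to 0.519 FPKM at 30 d.

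Conversely, 21 of the 23 lncRNAs called in JN18 had the same direction in MT72. Of these, 15 passed the unadjusted thresholds in MT72, and 10 were called there too. Some of the 21 hardly moved in MT72, such as MSTRG.25385.1 with a log2 difference of -0.07 and MSTRG.22540.1 with 0.10. The other 2 of the 23, MSTRG.21850.1 and MSTRG.915.1, were listed at 0 in all MT72 libraries and had no direction there. Of the 885 past the unadjusted thresholds in JN18, 678 (76.6%) had the same direction in MT72, 380 of the higher and 298 of the lower set. By the interaction term, MT72 and JN18 had different stage effects in 2 lncRNAs (0.0248%) at the adjusted p, while 523 were at or below 0.05 before adjustment.

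The most abundant lncRNAs of JN18 were not called. The antisense isoforms of LOC100789918 on chromosome 6 led with MSTRG.41534.2 at 4391, 5509 and 4314 FPKM at 40 d and 8174, 2741 and 4595 FPKM at 30 d. Its isoform MSTRG.41534.1 was at 3902, 5455 and 4161 FPKM against 304, 2572 and 2610.4 FPKM, a log2 difference of 1.81 ± 1.02 (SE, adjusted p = 0.498) without overlap of the stages. The sum over the 3 isoforms of this locus differed by 0.29 on the log2 scale (adjusted p = 0.960). MSTRG.17790.1 on chromosome 15 was at 3197, 4204 and 4287 FPKM against 5008, 2620.2 and 1921 FPKM, and its stages overlapped. MSTRG.4517.1 on chromosome 10 was far lower in JN_9 than in the other libraries, with 1451, 878 and 8.51 FPKM in JN_7, JN_8 and JN_9 against 336, 1020.2 and 458 FPKM at 40 d. Its log2 difference was 1.28 with JN_9 and -1.07 without it. MSTRG.28811.1, in an intron of LOC102660211, was at 0, 204 and 305 FPKM against 815, 669 and 88.9 FPKM, with JN_4 at 0 (adjusted p = 0.457). The remaining 5 of the 10 most abundant lncRNAs had log2 differences between -0.37 and -0.02.

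Of the 16 lncRNAs named in the study's text, 13 were tested and 2 passed the unadjusted thresholds, against 7 without JN_9. One of the 2 is MSTRG.25566.3, described above. The other, MSTRG.17612.1, is intergenic on chromosome 15 and was at 238, 143 and 151 FPKM at 40 d and at 61.8, 96.6 and 82.0 FPKM at 30 d, a log2 difference of 1.13 ± 0.42 (SE, adjusted p = 0.278). Its stages did not overlap. MSTRG.40968.1 was at 2.18, 3.57 and 4.28 FPKM against 4.94, 4.18 and 15.8 FPKM, and its log2 difference was -1.08 with JN_9 and -0.48 without it. The 5 that passed only without JN_9 were MSTRG.13311.1, MSTRG.27064.1, MSTRG.35711.1, MSTRG.45502.1 and MSTRG.38543.1. The first 4 were lower at 40 d, with log2 differences of -1.15, -0.86, -0.58 and -0.51 with JN_9 and -2.03, -1.90, -1.70 and -1.66 without it. MSTRG.38543.1 was higher, by 1.27 with JN_9 and 2.60 without it. None of these passed the adjusted p in the fit of both genotypes, with or without JN_9. MSTRG.4672.1, MSTRG.29201.1 and MSTRG.4796.5 did not pass the filter. The study calls the last 2 lower at 40 d in JN18 and higher at 40 d in MT72. In JN18 MSTRG.29201.1 was at 6.06, 27.4 and 0 FPKM at 40 d and at 0 in every 30 d library. MSTRG.4796.5 was at 0.733, 0.0316 and 1.20 FPKM against 0, 0.0700 and 0 FPKM. For both, the means ran against the study's directions in JN18 and in MT72, which was not tested.

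Leaving out JN_9 brought in 18 lncRNAs at the adjusted p, 8 higher and 10 lower at 40 d. In 6 of the 10 with the largest change JN_9 lay near the 40 d libraries. These 10 were picked for passing only without JN_9, so JN_9 lying away from JN_7 and JN_8 follows in part from that choice. MSTRG.33449.1, intergenic on chromosome 20, was at 4.91 and 7.65 FPKM in JN_7 and JN_8, at 0.283 FPKM in JN_9 and at 0.177, 0.365 and 0.356 FPKM at 40 d, and its adjusted p was 0.0105 without JN_9 and 0.217 with it. MSTRG.31268.1, antisense to LOC100499886 on chromosome 2, was at 0.154 and 0.472 FPKM in JN_7 and JN_8, at 3.44 FPKM in JN_9 and at 5.32, 4.10 and 4.15 FPKM at 40 d (adjusted p = 0.0107 without and 0.172 with JN_9). MSTRG.4311.1, intergenic on chromosome 10, was at 0.449 and 1.34 FPKM in JN_7 and JN_8, at 20.2 FPKM in JN_9 and at 27.4, 33.0 and 11.1 FPKM at 40 d (adjusted p = 0.0166 and 0.228). MSTRG.6123.1 was at 15.2, 4.65 and 0 FPKM at 30 d, MSTRG.17969.1, antisense to LOC100306319, at 4.05, 20.1 and 0.112 FPKM and MSTRG.24982.1 at 1.14, 3.21 and 0.0318 FPKM, all lower at 40 d and with JN_9 near the 40 d level. MSTRG.15122.1, in LOC100305595, kept its stages apart with JN_9, at 0.858, 0.826 and 0.221 FPKM at 30 d and at most 0.0306 FPKM at 40 d (adjusted p = 0.0418 without and 0.0939 with JN_9). So did MSTRG.4974.2 in LOC102665482, MSTRG.30468.1 in LOC100804635 and the intergenic MSTRG.30816.1, all higher at 40 d.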

How the data were processed

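Total RNA of young pods was depleted of ribosomal RNA and sequenced as stranded paired reads of 150 bases in 12 libraries, grouped by genotype and age as labelled. The authors computed FPKM per transcript and library with StringTie. Mapping was by HISAT2 in the methods but by TopHat2 in the submitters' processing notes. The coverage values, also deposited by the authors, give the mean coverage per base of each transcript without normalization, and coverage over FPKM gave the depth of 10.0 to 12.3 Gb per JN18 library. Reads were estimated as coverage times length over 150. The CPC score and CNCI score of coding potential were computed by the authors. Read counts were not used here. For the positions, the build was not given in the sources used.

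All 12 libraries were fitted as 4 groups on log2(FPKM + 0.1) in limma (version 3.58.1, under R 4.3.3). The prior variance followed the mean level, and p-values were adjusted by Benjamini-Hochberg over the 8052 lncRNAs above 0.1 FPKM in at least 3 JN18 libraries. Log2 differences are on this scale and are compressed near 0.1 FPKM. The methods name edgeR, which needs counts and was not used here. The fit was tested on simulated data. Differences at 40 d minus 30 d were refitted without JN_9, and alternatives covered pseudocounts, filters, scaling, array weights, voom and each library in turn. Library numbers were compared by a two-sided exact permutation test. Tables and figures used Python 3.11.15, pandas 2.3.3, numpy 2.4.6, matplotlib 3.10.9 and scipy 1.17.1. RefSeq names (Glycine_max_v4.0) matched 4308 of 4607 host names.

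Named lncRNAs are those called at the adjusted p, up to 10 in each direction with the largest log2 difference past the unadjusted thresholds, a mean of 1 FPKM or more at the higher stage and no overlap, the 10 most abundant, the 16 the study names, members of the host lists past the unadjusted thresholds, up to 5 per direction called only without JN_9, and up to 5 per direction at 0 in a whole stage. The comparison, the members and the lists were chosen with earlier results of these data known.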

Additional observations from a re-analysis of the deposited data

Results flagged for a closer look

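The stage effect differed between JN18 and MT72 for 2 lncRNAs by the interaction term of the limma fit. MSTRG.43107.1, intergenic on chromosome 6 and spliced from 2 exons, was at 0.170, 0.158 and 0.382 FPKM at 40 d and at 0.0462, 0.0750 and 0 FPKM at 30 d in JN18, while in MT72 it was at 0.0757, 0 and 0 FPKM at 40 d and at 1.27, 1.03 and 0.871 FPKM at 30 d. Its log2 difference between the stages was 1.24 in JN18 and -3.25 in MT72, an interaction of -4.49 with an adjusted p of 0.0470. MSTRG.53475.1, intergenic on an unplaced scaffold, was at 7.98, 6.45 and 5.17 FPKM at 40 d and at 8.06, 9.05 and 10.3 FPKM at 30 d in JN18, and at 10.5, 9.28 and 7.36 FPKM against 1.55, 1.52 and 1.03 FPKM in MT72. Its log2 difference was -0.49 in JN18 and 2.65 in MT72, an interaction of 3.14 with an adjusted p of 0.0187. Of the 4 groups, MT_30 was the one that stood apart in both lncRNAs.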

How the results depend on the processing

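All 23 called lncRNAs kept their direction under every alternative that gave them a value, 366 values in all, and 141 of these passed the adjusted p. The stages overlapped in none of the 23, so another pseudocount, filter or set of libraries could not turn a direction. The kept direction is therefore no measure of stability. The count of 23 was 12 with a pseudocount of 0.01, 4 with a pseudocount of 1, 10 with a filter of 0.5 FPKM, 3 with only the JN18 libraries in the fit, 7 with those and without JN_9, 1 with array weights (JN_9 weighted 0.261) and 6 with voom on estimated reads, and 0 to 123 with one library left out. The 885 lncRNAs past the unadjusted thresholds became 104 with a pseudocount of 1 and 454 with a filter of 0.5 FPKM. Summing the isoforms of a locus, chosen after seeing the data, gave 21 calls at 7739 loci. The 2 interaction calls became 1 with a pseudocount of 0.01, 1 without a filter, 1 with a filter of 0.5 FPKM, 7 with a filter over all 12 libraries, 0 with voom (503 at or below 0.05 before adjustment) and 0 to 2 with one library left out, where limma made no call without JN_6 or JN_8 (552 and 664 before adjustment). The share of lncRNAs without overlap, 13.7%, was 12.1% without a filter, 14.7% with a filter of 0.5 FPKM and 19.9% to 27.8% with one library left out, where fewer libraries make overlap rarer. The stage difference of 67 in JN18 lncRNAs detected per library ranged from -167 to 219.7 with one library left out and turned sign without JN_9, moves within the 30 d SD of 411, which itself rests on JN_9 (101 without it). No paired analysis was possible because the JN_40 and JN_30 libraries share no replicate number. With 22.6 to 27.7 reads at 1 FPKM in a transcript of median length, differences between levels under 0.1 FPKM were not detectable at this depth.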

Other observations

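MSTRG.2945.1, a sense transcript of PSK3, which encodes a precursor of the growth peptide phytosulfokine, was at 0.493, 0.662 and 0.325 FPKM at 40 d and at 0.206, 0 and 0 FPKM at 30 d in JN18 (adjusted p = 0.172), while its isoform MSTRG.2945.3 was at 3.45, 5.54 and 3.66 FPKM against 5.82, 5.19 and 0.140 FPKM. The log2 difference of the latter was 1.11 with JN_9 and -0.41 without it. MSTRG.16798.1, an isoform of the locus opposite HPS that is assigned to LOC100812425, was at 28.9, 2.09 and 66.3 FPKM against 0.0758, 4.91 and 0 FPKM. MSTRG.44155.1, a sense transcript of the transcription factor gene MYB73, was at 12.2 FPKM in JN_9 and at 0.00356 to 0.375 FPKM in the other JN18 libraries. These lncRNAs were chosen after their values were seen.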
